A study of Homo sapiens with 28 samples.

Results

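Open chromatin regions of chromosome 10 were mapped by ATAC-seq in AN3CA, a cell line from a human endometrial carcinoma. In this assay a transposase inserts sequencing adapters into accessible DNA. The series' design text describes CUT&Tag, while the sample titles name ATAC-seq, which was followed here. The 28 libraries each came with a list of peaks on the hg19 build. Every list was first shortened to its 19433 peaks of highest −log10 p on chromosomes 1 to 22 and X, the length of the shortest list. Overlapping peaks were then merged, and a merged region was kept when at least 2 lists held it. This gave 1736 regions on chromosome 10 of 32972 in all, or 5.27%. Since measured peaks chose the regions, only the way their calls divided between constructs was compared.

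All cells carried an expression construct, and each construct had 2 libraries except Empty_vector, which had 4. The altered forms of ARID1A were DBDmut (labelled an ARID domain mutant), delIDR1 and CBR (labelled truncation mutants), DDX4 (labelled a hybrid of the IDR, the intrinsically disordered region), Y42S and AQGscramC1C2. Altered ARID1B came as S320_G327del, A457_G461del, Block13del and Block9del. The references were the wild types ARID1A_WT and ARID1B_WT for the altered forms, and Empty_vector for every construct. For 10 libraries of 5 constructs (Y42S, AQGscramC1C2, A457_G461del, Block13del and Block9del) the genotype label named the empty vector while the title named the construct, and the title was followed here. The labels give neither the promoter of the constructs, nor the ARID1 proteins that parental AN3CA cells make, nor whether a line is a clone. They also do not say whether replicates came from separate cultures, so p-values measure only the spread between these libraries, which may be technical.

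ARID1A and ARID1B are alternative ARID-containing subunits of the canonical BAF (SWI/SNF) complex, an ATP-driven remodeller that slides and ejects nucleosomes and keeps many enhancers accessible. Mutations that remove ARID1A are frequent in endometrial carcinoma. The long arm of chromosome 10 carries FGFR2, a growth factor receptor gene that is mutated in some of these tumours. No gene annotation of hg19 was used here, so regions are given by position and are not assigned to genes, exons or introns.

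The whole lists held 63652 peaks on chromosome 10, between 928 in Y42S library 2 and 4033 in ARID1A_WT library 1. Read depth is unknown, and the deposited lists ran from 19489 to 76589 peaks. The weakest peak kept after shortening had a −log10 p of 5.39 in Y42S library 2 and 28.6 in CBR library 2, so a peak missing from a shortened list can still stand in the whole one. Date codes in the peak names placed the libraries in 6 runs. Runs A and B each held 1 library of ARID1A_WT, DBDmut, delIDR1, CBR and Empty_vector. Run C held ARID1B_WT, S320_G327del and Empty_vector libraries 3 and 4. The runs of DDX4, of AQGscramC1C2, and of Y42S together with the other ARID1B deletions held no Empty_vector library, so construct and run cannot be told apart there.

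The regions were unevenly spread over the chromosome. The short arm held 353 and the long arm 1383, on either side of a gap of 4.29 Mb without a peak (38692574 to 42983796), which contains the centromere. Chromosome 10 had 2.37 regions per protein-coding gene (gene number from GRCh38.p14), below chromosome 5 at 2.46 and above chromosome 7 at 2.13 and chromosome 19 at 1.10. The median region was 907 bp wide on chromosome 10 and 982 bp on the other chromosomes. On chromosome 10, 504 regions (29.0%) were called in all 28 libraries, with a median width of 1576.5 bp, and 478 (27.5%) were called in 2 to 5 libraries, with a median width of 625.5 bp. Over all chromosomes these classes held 30.1% and 25.3% of regions. At the edge of the selection, 189 kept regions were in just 2 lists (median width 569 bp), and 290 merged regions in just 1 list (median width 361 bp) were left out.

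Wild-type ARID1 constructs placed a larger share of their strongest peaks on chromosome 10 than Empty_vector did, and the difference lay on the long arm. Chromosome 10 took 5.17% and 5.15% of the shortened lists in ARID1A_WT, 5.50% and 5.63% in ARID1B_WT, and 4.84%, 4.80%, 4.73% and 4.65% in Empty_vector. All 4 wild-type libraries lay above all 4 Empty_vector libraries. The means were 5.36% ± 0.241 for the wild types and 4.75% ± 0.0837 for Empty_vector (SD, n = 4 each), a log2 difference of 0.17 (SE 0.0145, limma over the 23 chromosome shares, adjusted p 6.25e-23). This was the second largest difference of the 23, after chromosome 5, in a contrast where 69.6% of the chromosome shares passed an adjusted p of 0.05. An exact two-sided permutation test over the libraries gave p = 0.0286, the smallest that 4 against 4 can give.

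The share result depended on how strength was ranked. In the whole lists the log2 difference was 0.09 (limma, adjusted p 0.00310). With the lists shortened by fold enrichment in place of −log10 p it was 0.02 (limma, adjusted p 0.342) and no longer passed. Taken alone, ARID1B_WT still passed by fold enrichment, at 0.07 (limma, adjusted p 0.0154), while ARID1A_WT gave −0.03 (limma, adjusted p 0.400).

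On the long arm the shares were 4.20% and 4.16% in ARID1A_WT, 4.54% and 4.62% in ARID1B_WT, and 3.90%, 3.82%, 3.67% and 3.60% in Empty_vector. The groups did not overlap, and the log2 difference between the wild types and Empty_vector was 0.22 (SE 0.0187, limma over 41 arms, adjusted p 6.22e-17), the third in size, where 58.5% of arms passed. By fold enrichment this difference too no longer passed, at −0.00359 (limma, adjusted p 0.889). Taken alone, ARID1B_WT then gave 0.07 and ARID1A_WT −0.08 (limma, adjusted p 0.0618 in each). On the short arm the shares were 0.967%, 0.993%, 0.957% and 1.01% in the wild-type libraries, against 0.937%, 0.978%, 1.06% and 1.04% in Empty_vector. These overlapped, and the log2 difference was −0.03 with a 95% interval of −0.11 to 0.05 (limma, adjusted p 0.479). The number of long-arm peaks per short-arm peak averaged 4.46 ± 0.249 in the wild types and 3.75 ± 0.351 in Empty_vector (SD, n = 4 each).

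**Figure D1:**
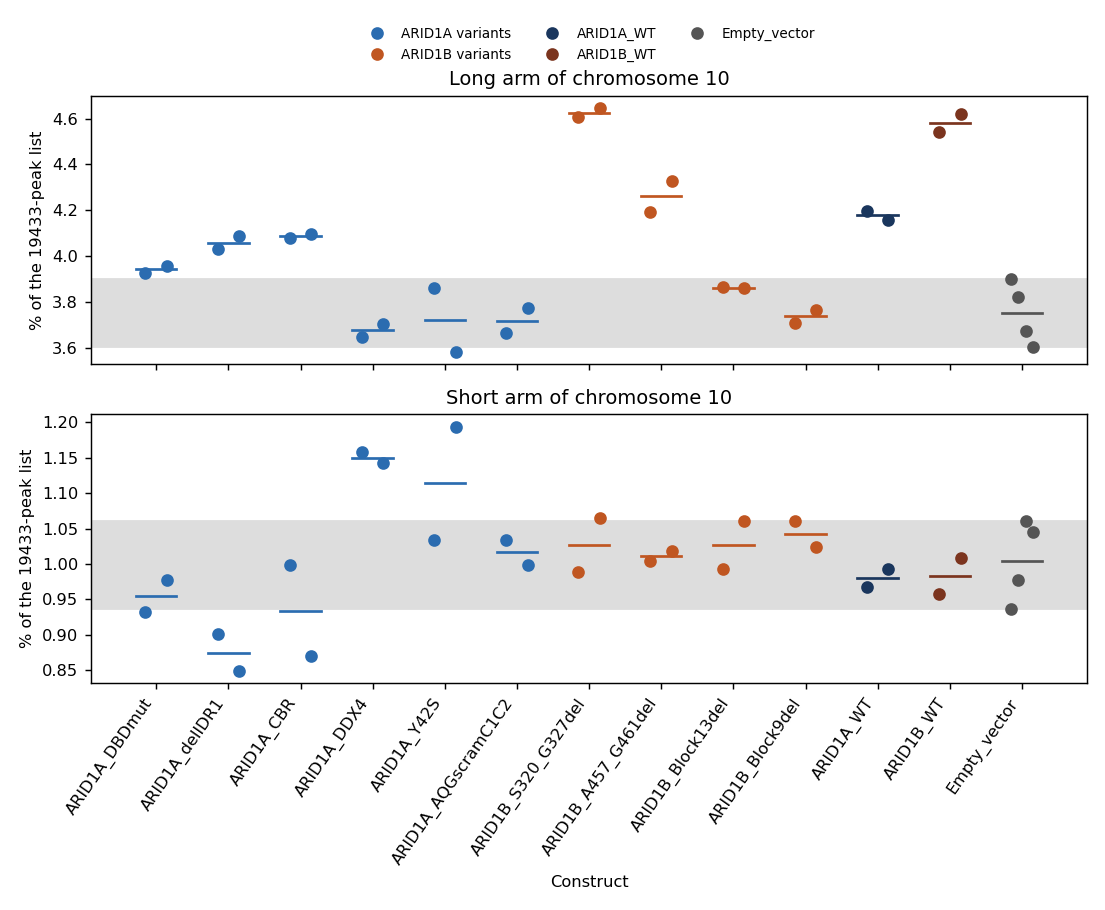
Percent of each shortened peak list on the short and on the long arm of chromosome 10, by construct, with 1 dot per library, a bar at each mean and a grey band over the range of the 4 Empty_vector libraries. On the long arm both wild types, S320_G327del, A457_G461del, CBR, delIDR1 and DBDmut lie above the band, and on the short arm DDX4 lies above it and delIDR1 below it.

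In the shortened lists ARID1B_WT had the larger share. It exceeded ARID1A_WT by 0.11 on the log2 scale for the chromosome (limma, adjusted p 1.38e-06, in a contrast where 52.2% of chromosome shares passed) and by 0.13 for the long arm (limma, adjusted p 3.02e-05). In the whole lists it did not, with 5.16% ± 0.00646 in ARID1B_WT and 5.24% ± 0.0387 in ARID1A_WT (SD, n = 2 each), a log2 difference of −0.02 (limma, adjusted p 0.918). By fold enrichment ARID1B_WT again exceeded ARID1A_WT, by 0.10 for the chromosome and 0.14 for the long arm (limma, adjusted p 0.0360 and 0.0128). Each wild type was also set against the Empty_vector libraries of its own runs. The chromosome 10 effect was then 0.10 for ARID1A_WT in runs A and B and 0.25 for ARID1B_WT in run C. The difference between these effects was −0.15 (SE 0.0280, limma, adjusted p 2.76e-06), and −0.22 on the long arm (limma, adjusted p 1.02e-09). Empty_vector itself had a long-arm share higher by 0.09 in runs A and B than in run C (limma, adjusted p 0.0102).

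Among the altered constructs, S320_G327del and A457_G461del had chromosome 10 shares above every Empty_vector library by the widest margin. S320_G327del gave 5.59% and 5.71%, which is 0.25 above Empty_vector on the log2 scale (limma, adjusted p 7.70e-29), and 0.02 from ARID1B_WT (limma, adjusted p 0.352, where 30.4% of chromosome shares passed). A457_G461del gave 5.20% and 5.35%, which is 0.15 above Empty_vector (limma, adjusted p 1.40e-13) and −0.08 from ARID1B_WT (limma, adjusted p 0.00159, where 21.7% passed). In these contrasts with Empty_vector 87% of chromosome shares passed for each of the 2 deletions. Against Empty_vector of run C alone, S320_G327del was higher by 0.27 for the chromosome (limma, adjusted p 1.57e-24, where 91.3% of chromosome shares passed) and by 0.35 for the long arm (limma, adjusted p 1.71e-41, where 80.5% of arms passed). By fold enrichment neither deletion passed, at 0.02 and 0.05 (limma, adjusted p 0.510 and 0.0953).

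The other ARID1B deletions had no chromosome 10 share difference from Empty_vector that passed. Block13del gave 4.86% and 4.92% and Block9del gave 4.77% and 4.79%, log2 differences from Empty_vector of 0.04 (limma, adjusted p 0.0734) and 0.01 (limma, adjusted p 0.896). Still, the 2 Block13del libraries lay above every Empty_vector library. Its difference was about that of DBDmut (0.04, limma, adjusted p 0.0471), which passed, so the threshold alone separates these constructs. Block13del and Block9del fell below ARID1B_WT, by 0.19 (limma, adjusted p 1.85e-15) and by 0.22 (limma, adjusted p 1.20e-19), where 73.9% of chromosome shares passed in each contrast.

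Of the ARID1A forms, 3 had higher shares than Empty_vector at an adjusted p under 0.05. CBR (5.08% and 4.97%), delIDR1 (4.93% in both libraries) and DBDmut (4.86% and 4.93%) had chromosome 10 shares above Empty_vector by log2 differences of 0.08, 0.05 and 0.04 (limma, adjusted p 6.51e-05, 0.00859 and 0.0471). The shares of all chromosomes that passed in these contrasts were 52.2% for CBR, 43.5% for delIDR1 and 39.1% for DBDmut. Their long-arm differences were 0.13, 0.11 and 0.07 (limma, adjusted p 8.63e-06, 6.99e-05 and 0.0270), where 43.9%, 34.1% and 22% of arms passed. These 3 constructs came from runs A and B, so they were also set against Empty_vector of those runs alone. For the chromosome share CBR still passed at 0.06 (limma, adjusted p 0.0107), while delIDR1 gave 0.03 and DBDmut 0.02 (limma, adjusted p 0.173 and 0.410), where 43.5%, 26.1% and 13% of chromosome shares passed. On the long arm CBR and delIDR1 passed at 0.08 and 0.07 (limma, adjusted p 0.00316 and 0.0122) and DBDmut, at 0.03, did not (limma, adjusted p 0.390), where 24.4%, 26.8% and 9.76% of arms passed. By fold enrichment none of the 3 passed, at −0.05, −0.02 and −0.05 for the chromosome in CBR, delIDR1 and DBDmut (limma, adjusted p 0.107, 0.599 and 0.251). In the whole lists the chromosome difference of delIDR1 did not pass either (0.08, limma, adjusted p 0.0837). Against ARID1A_WT, DBDmut and delIDR1 fell by 0.08 and 0.06 for the chromosome (limma, adjusted p 0.00156 and 0.0114, where 47.8% and 26.1% of chromosome shares passed), while CBR differed by −0.04 (limma, adjusted p 0.177, where 8.7% passed).

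DDX4, Y42S and AQGscramC1C2 had no long-arm difference from Empty_vector that passed, and each fell below ARID1A_WT on the long arm, by 0.18, 0.17 and 0.17 (limma, adjusted p 6.23e-08, 5.19e-07 and 3.39e-07). In these contrasts with ARID1A_WT 48.8%, 51.2% and 39% of arms passed. On the short arm DDX4 gave 1.16% and 1.14% and Y42S gave 1.03% and 1.19%, against 0.937% to 1.06% in Empty_vector. For DDX4 the short-arm log2 difference from Empty_vector was 0.20 (limma, adjusted p 0.00102), and for Y42S it was 0.15 (limma, adjusted p 0.0116). In each contrast this was the highest of the 41 arms, of which 34.1% passed for DDX4 and 39% for Y42S. Both DDX4 libraries exceeded all 4 Empty_vector libraries, but of Y42S only 1 of 2 did. Two-sided exact permutation tests gave p = 0.133 for DDX4 and 0.4 for Y42S, where 2 against 4 cannot go below 0.0667. In the other direction, delIDR1 had 0.901% and 0.849% on the short arm, 0.20 below Empty_vector (a log2 difference of −0.20, limma, adjusted p 0.000509), the lowest of the 41 arms, of which 34.1% passed. For delIDR1 the exact permutation test gave p = 0.133. Long-arm peaks per short-arm peak were 4.47 and 4.81 in the delIDR1 libraries and 3.15 and 3.24 in the DDX4 libraries. Neither short-arm difference of DDX4 or Y42S held in the whole lists (−0.03 and −0.02, limma, adjusted p 0.543 and 0.838) or by fold enrichment (0.18 and 0.10, limma, adjusted p 0.112 and 0.328). That of delIDR1 was −0.13 against Empty_vector of its own runs (limma, adjusted p 0.0248), −0.05 in the whole lists and −0.04 by fold enrichment (limma, adjusted p 0.224 and 0.880).

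Windows of 1 Mb showed where on the chromosome the wild types differed from Empty_vector. Of the 120 windows with a region, 97 had a mean of at least 2 regions per library and were tested on log2(regions + 1) among 1907 windows of all chromosomes. Relative to Empty_vector, 32 windows were higher in the wild types (33.0%, against 22.7% of all windows) and 11 were lower (11.3%, against 20.9%). The median log2 difference was 0.10 over the 97 windows and −0.0045 over all windows. The long arm held 28 higher and 6 lower windows of 70, with a median of 0.16, and the short arm 4 higher and 5 lower of 27, with a median of −0.08. Of the 32 higher windows, 30 held a region called in all wild-type and no Empty_vector libraries, as did 60 of the 120 windows with a region. The same calls set both, so this overlap is a description. By fold enrichment 20 windows passed in place of 43, and in the whole lists 96.

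The window from 80 to 81 Mb had the largest difference and the smallest p of the 97. ARID1A_WT had 13 and 15 regions there and ARID1B_WT had 20 and 20, against 8, 6, 6 and 6 in Empty_vector. All wild-type libraries lay above all Empty_vector libraries, and the log2 difference was 1.25 (SE 0.101, limma, adjusted p 7.37e-08). The whole lists held 26, 24, 24 and 23 regions in the wild types and 11, 13, 7 and 8 in Empty_vector. However, the wild-type whole lists were longer (59776 to 76530 peaks, against 24527 to 49468 in Empty_vector). List length and construct cannot be told apart in these whole-list counts, so they add no support. Among the altered constructs this window held 18 and 21 regions in S320_G327del, 12 and 15 in A457_G461del, 13 and 13 in delIDR1, 12 and 12 in CBR, 11 and 10 in DBDmut and 10 and 10 in Block13del. Counts were at or near the Empty_vector range in the rest, with 7 and 7 in DDX4, 8 and 6 in Y42S, 8 and 8 in AQGscramC1C2 and 6 and 8 in Block9del.

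The window from 121 to 122 Mb came next by p, though not by size. It held 23 and 23 regions in ARID1A_WT and 20 and 24 in ARID1B_WT, against 12, 12, 12 and 13 in Empty_vector, a log2 difference of 0.82 (SE 0.0668, limma, adjusted p 7.69e-08). In the whole lists the window held 29, 30, 30 and 29 regions in the wild types and 20, 20, 14 and 15 in Empty_vector, where list length differed as well.

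Other windows separated the groups with smaller counts. From 53 to 54 Mb the wild types had 5, 6, 6 and 5 regions and every Empty_vector library had 2, a log2 difference of 1.11 (limma, adjusted p 3.05e-05). From 112 to 113 Mb they had 20, 21, 22 and 22, against 12, 11, 10 and 11 in Empty_vector, a difference of 0.89 (limma, adjusted p 5.55e-06). From 116 to 117 Mb ARID1A_WT had 10 and 11 and ARID1B_WT 16 and 14, against 6, 6, 7 and 7 in Empty_vector, a difference of 0.86 (limma, adjusted p 3.95e-06). In none of these 3 windows did the groups overlap.

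From 95 to 96 Mb the ARID1A_WT libraries held 18 and 17 regions and those of ARID1B_WT 15 and 16, against 10, 10, 8 and 8 in Empty_vector, a log2 difference of 0.81 (limma, adjusted p 1.36e-06). The groups again did not overlap. The windows from 76 to 77, 77 to 78, 72 to 73 and 45 to 46 Mb differed by 0.75, 0.79, 0.60 and 0.36 (limma, adjusted p 2.06e-06, 5.60e-05, 1.35e-06 and 4.38e-05), again with no overlap of the groups. These 10 windows were picked by smallest p in this contrast, so the lack of overlap is a description. The share of all windows without overlap was not counted. With peaks ranked by fold enrichment, the windows from 72 to 73 and from 45 to 46 Mb differed by −0.07 and −0.03.

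Regions were not most numerous where the wild types differed most. The window from 73 to 74 Mb held the most, with 47, and gave 26, 20, 26 and 28 in the wild types against 17, 18, 17 and 16 in Empty_vector, a log2 difference of 0.52 (limma, adjusted p 0.000366). The next 4, from 123 to 124 Mb (46 regions), 104 to 105 Mb (42), 102 to 103 Mb (41) and 99 to 100 Mb (39), did not pass. From 104 to 105 Mb, for example, the wild types had 28, 26, 27 and 29 regions, within the 30, 30, 26 and 27 of Empty_vector. The 11 lower windows had log2 differences from −0.16 to −0.61, the largest from 16 to 17 Mb (SE 0.205, limma, adjusted p 0.0219), a window singled out after its value was seen.

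**Figure D2:**
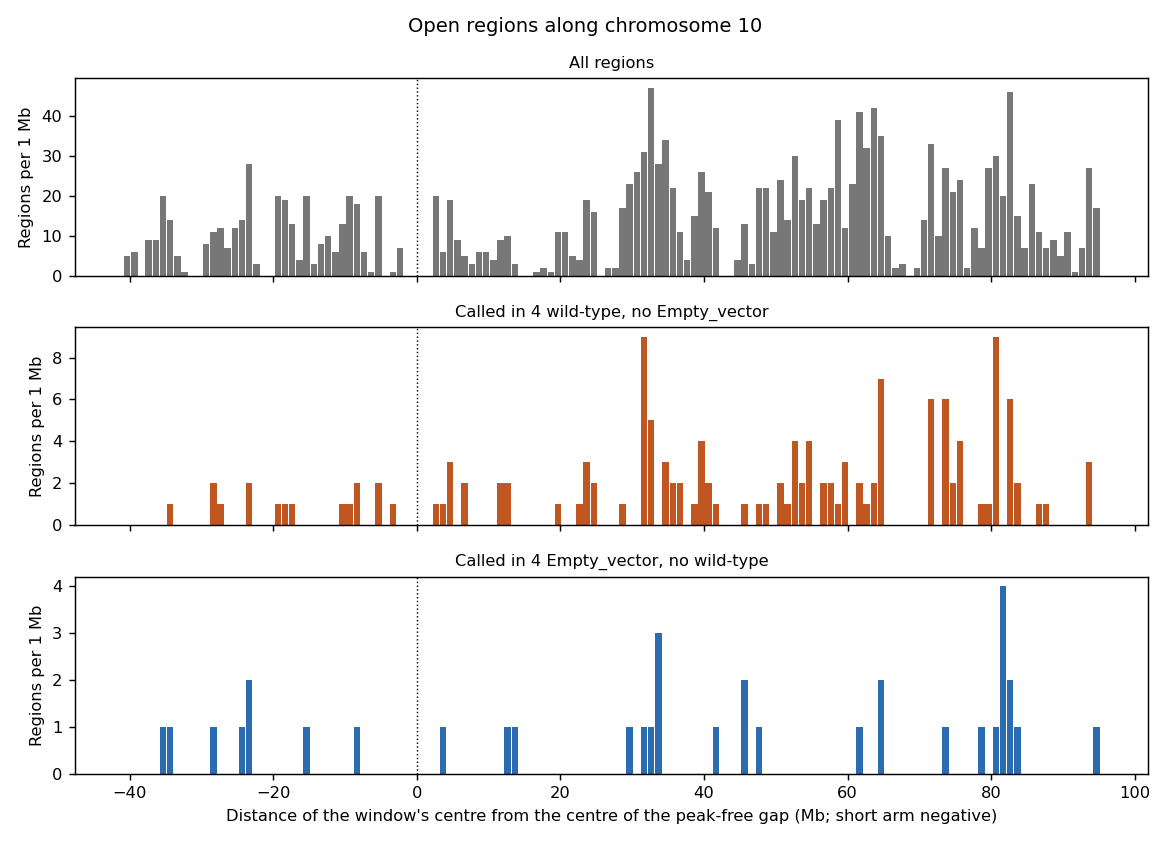
Number of chromosome 10 regions per 1 Mb window against distance in Mb from the centre of the peak-free gap, short arm negative, for all 1736 regions (top), the 142 called in all 4 wild-type and no Empty_vector libraries (middle) and the 35 with the reverse pattern (bottom). The middle panel reaches 9 regions in 2 long-arm windows, and most short-arm windows hold none.

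Each wild type differed from Empty_vector in many windows of chromosome 10, and the 2 were compared with one another. ARID1A_WT had 25 higher and 7 lower windows of 97 than Empty_vector (16.3% and 10.6% of all windows were higher and lower). ARID1B_WT had 31 higher and 11 lower (20.2% and 21.2% of all windows). ARID1B_WT had more regions than ARID1A_WT in 6 windows and fewer in 2, where 3.62% and 5.19% of all windows passed. The 6 were those from 113 to 114 Mb (a log2 difference of 0.90), 22 to 23 Mb (0.84), 89 to 90 Mb (0.69), 46 to 47 Mb (0.58), 80 to 81 Mb (0.49) and 116 to 117 Mb (0.47), with limma adjusted p between 0.00741 and 0.0453. The 2 were from 27 to 28 Mb (−0.49) and 0 to 1 Mb (−0.32). With each wild type set against Empty_vector of its own runs, the effects differed in 5 of 97 windows (4.14% of all windows), and 3 of these 8 still passed, those from 113 to 114, 89 to 90 and 46 to 47 Mb (limma, adjusted p 0.0139, 0.00932 and 0.0139), and from 80 to 81 Mb the adjusted p was 0.0629 (limma).

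S320_G327del and A457_G461del moved windows of chromosome 10 about as widely as ARID1B_WT. S320_G327del had 35 higher and 14 lower windows than Empty_vector, against 25.5% and 25.8% of all windows, and A457_G461del had 31 higher and 7 lower, against 19.3% and 16.4%. Against Empty_vector of run C alone, S320_G327del had 37 higher and 13 lower (24.3% and 23.8%). Compared with ARID1B_WT, S320_G327del had 2 higher and no lower windows (1.94% and 2.36% of all windows), and A457_G461del no higher and 1 lower (1.1% and 0.996%). Of the windows higher than in Empty_vector, 30 and 28 lay on the long arm in the 2 deletions.

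Block13del and Block9del had few windows that differed from Empty_vector. Block13del had 2 higher windows and none lower (1.31% and 0.734% of all windows), those from 80 to 81 Mb (0.56) and from 121 to 122 Mb (0.36). Block9del had no window past the threshold (0% higher and 0.0524% lower of all windows in limma), and 4 at an unadjusted p under 0.05. Against ARID1B_WT, Block13del had 8 higher and 24 lower windows (13.6% and 13.7% of all windows) and Block9del 12 higher and 29 lower (16.4% and 17.1%). The lower ones were mostly long-arm windows, 21 of 24 in Block13del and 26 of 29 in Block9del, while 6 of the 8 and 9 of the 12 higher ones were on the short arm.

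Of the ARID1A forms, DBDmut, delIDR1 and CBR kept part of the window pattern. Against Empty_vector, DBDmut had 9 higher and 1 lower windows (5.77% and 1.68% of all windows), delIDR1 8 and 2 (4.77% and 2.78%) and CBR 10 and 4 (3.04% and 1.99%). The window from 80 to 81 Mb was higher in each, by 0.62 in DBDmut, 0.91 in delIDR1 and 0.80 in CBR, and so was that from 121 to 122 Mb, by 0.44, 0.40 and 0.32. Against Empty_vector of runs A and B alone, DBDmut had 5 higher and no lower windows (2.67% and 0.944% of all windows), delIDR1 5 and 1 (2.1% and 1.05%) and CBR 3 and none (0.891% and 0.734%). From 80 to 81 Mb all 3 still passed, by 0.53, 0.82 and 0.71 (limma, adjusted p 0.0444, 0.00375 and 0.0171). From 121 to 122 Mb DBDmut and delIDR1 did, by 0.47 and 0.43 (limma, adjusted p 0.0112 and 0.0249), but CBR, at 0.34, did not (limma, adjusted p 0.0884). Against ARID1A_WT, DBDmut had no higher and 5 lower windows (0.891% and 2.52%), delIDR1 4 and 8 (1.21% and 3.83%) and CBR 9 and 18 (3.83% and 7.87%).

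DDX4, Y42S and AQGscramC1C2 had 1, 0 and 0 higher and 2, 0 and 0 lower windows than Empty_vector. The share of all windows that passed was 0.787% higher and 1.36% lower for DDX4, 0.105% and 0.629% for Y42S, and 0.0524% in each direction for AQGscramC1C2. By limma, 13 windows in Y42S and 8 in AQGscramC1C2 had an unadjusted p under 0.05. The higher DDX4 window was from 91 to 92 Mb (0.35), and the lower ones were from 115 to 116 Mb (−0.44) and from 97 to 98 Mb (−0.28). Against ARID1A_WT, DDX4 had 8 higher and 24 lower windows (7.6% and 15.4% of all windows), Y42S 7 and 24 (6.92% and 15.4%) and AQGscramC1C2 6 and 21 (7.39% and 11.9%). The lower windows lay mainly on the long arm, 22 of 24 in DDX4, 22 of 24 in Y42S and 19 of 21 in AQGscramC1C2.

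**Figure D3:**
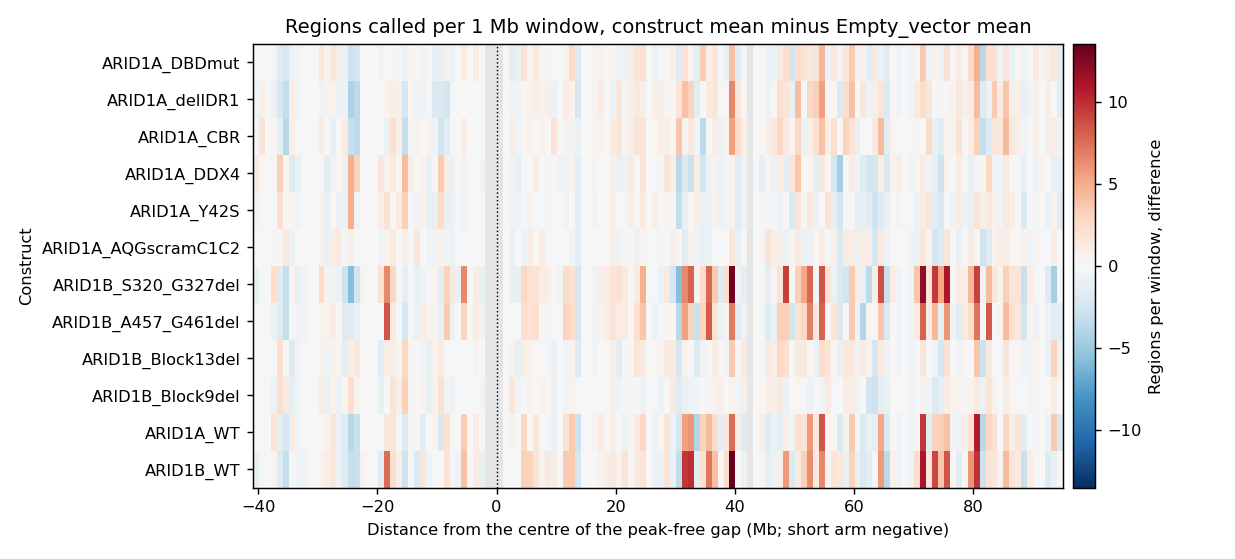
Difference in the mean number of regions per 1 Mb window of chromosome 10 between each construct (rows) and Empty_vector, against distance in Mb from the centre of the peak-free gap, short arm negative. The largest difference, 13.5 regions, is that of ARID1B_WT in the window from 80 to 81 Mb, which is raised in 8 constructs and near 0 in DDX4, Y42S, AQGscramC1C2 and Block9del.

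At single regions, 142 of chromosome 10 were called in all 4 wild-type libraries and in no Empty_vector library, and are named gained here. They were 8.18% of the chromosome's regions, against 5.78% of regions on all chromosomes, a share that only chromosome 5 (10.2%) and chromosome 7 (8.86%) exceeded. Regions with the reverse pattern, named lost, numbered 35 (2.02%, against 2.27% on all chromosomes). A further 586 regions were called in all 8 libraries (33.8%, against 34.9% on all chromosomes). Both classes were picked by these calls, so the counts are a description.

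Gained regions were denser on the long arm. There were 126 on the long arm (9.11% of its regions) and 16 on the short arm (4.53%), whereas lost regions made up 1.95% of the long arm (27) and 2.27% of the short arm (8). The median distance from a gained region to the nearest other one was 103696 bp on chromosome 10, against 185096 bp on the other chromosomes. It was 89428 bp on the long arm and 444288 bp on the short arm, and 69 of the 126 long-arm regions (54.8%) but 2 of the 16 short-arm regions (12.5%) had a neighbour within 100 kb. Gained regions were 977 bp wide at the median, and lost regions 858 bp. Of all gained regions, 37 (26.1%) lay in the 5 windows that held most. Those from 72 to 73 and from 121 to 122 Mb held 9 each, and that from 105 to 106 Mb held 7.

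Most gained regions had no peak in the whole Empty_vector lists, on chromosome 10 as on all chromosomes. Of the 142, 101 (71.1%, against 72.0% on all chromosomes) were in no whole Empty_vector list, 37 in 1 to 3 of them and 4 in all of them. Of the 35 lost regions 26 (74.3%, against 82.7% on all chromosomes) stood in all 4 wild-type whole lists, and none was missing from all 4. The wild-type whole lists were longer, with 59776 to 76530 peaks on chromosomes 1 to 22 and X, against 24527 to 49468 in Empty_vector, so the 2 classes cannot be compared in this respect.

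Regions were also counted within runs, where wild-type and Empty_vector libraries carried the same date code. In runs A and B, 215 regions (12.4%, against 9.19% on all chromosomes) were in both ARID1A_WT libraries and neither Empty_vector library, and 113 (6.51%, against 6.91%) had the reverse pattern. In run C, 300 (17.3%, against 12.6%) were in both ARID1B_WT libraries and neither Empty_vector library, and 115 (6.62%, against 9.42%) had the reverse. Empty_vector libraries of runs A and B against those of run C gave 56 regions one way (3.23%, against 2.88% on all chromosomes) and 38 the other (2.19%, against 2.52%). Regions called in both libraries of a wild type and in no Empty_vector library numbered 206 for ARID1A_WT (11.9%, against 8.72%) and 294 for ARID1B_WT (16.9%, against 12.1%).

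The altered constructs, which took no part in choosing the 142 gained regions, called very different shares of them. S320_G327del called 93.0% and 93.7% and A457_G461del 83.8% and 83.1% in their 2 libraries. Block13del called 35.2% and 34.5%, and Block9del 2.11% and 4.23%, the latter against 2.89% and 4.03% on the other chromosomes. Among ARID1B deletions the share therefore ran from nearly all to nearly none, with library pairs within 3 percentage points of one another.

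Among ARID1A forms DBDmut called 51.4% and 50.7% of the 142, delIDR1 44.4% and 42.3%, and CBR 20.4% and 19.01%. DDX4 called 8.45% and 6.34%, against 7.83% and 6.64% of gained regions on the other chromosomes. Y42S called 5.63% and 8.45%, against 2.10% and 6.47%, and AQGscramC1C2 3.52% and 4.23%, against 2.67% and 1.99%. As a scale for these values, gained regions were chosen anew without each wild-type or Empty_vector library. The wild-type libraries left out then called 84.5% to 95.3% of them and the Empty_vector libraries left out 0% to 1.39%. The 6 ARID1A forms averaged 22.1% ± 19.4 (SD, n = 12 libraries) and the 4 ARID1B deletions 53.7% ± 39.1 (SD, n = 8 libraries). These SDs pool unlike constructs and runs and count both libraries of each construct. The 2 means therefore describe the forms made and do not compare ARID1A with ARID1B. DBDmut averaged 51.1% on chromosome 10, against 46.6% on the other chromosomes, delIDR1 43.3%, against 44.8%, CBR 19.7%, against 19.3%, and Block13del 34.9%, against 30.7%.

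The gained set itself was also rebuilt from whole lists, shorter lists, fold enrichment, 50% overlap and regions in 4 or more lists. The mean share called then ran from 12.2% to 44.8% in Block13del, 0% to 10.4% in Block9del, 14.1% to 31.2% in CBR, 0.828% to 7.39% in DDX4, 0% to 7.04% in Y42S and 0% to 3.87% in AQGscramC1C2. It ran from 41.9% to 58.6% in DBDmut, 37.2% to 51.4% in delIDR1, 92.2% to 98.6% in S320_G327del and 78.7% to 83.8% in A457_G461del.

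The whole lists held more of the 142 regions. They covered 97.9% in both DBDmut libraries, 94.4% and 99.3% in delIDR1, 68.3% and 82.4% in CBR, 88.0% and 85.9% in Block13del, and 55.6% and 57.7% in Block9del. S320_G327del reached 100% in both libraries, and A457_G461del 100% and 99.3%. DDX4 (14.8% and 16.2%) and Y42S (25.4% and 8.45%) were near the 23.9%, 23.9%, 3.52% and 7.04% of Empty_vector. AQGscramC1C2 had 16.9% and 36.6%, the latter above every Empty_vector library. Block9del had 30104 and 30102 peaks in its whole lists, against 28880 and 36113 in AQGscramC1C2.

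**Figure D4:**
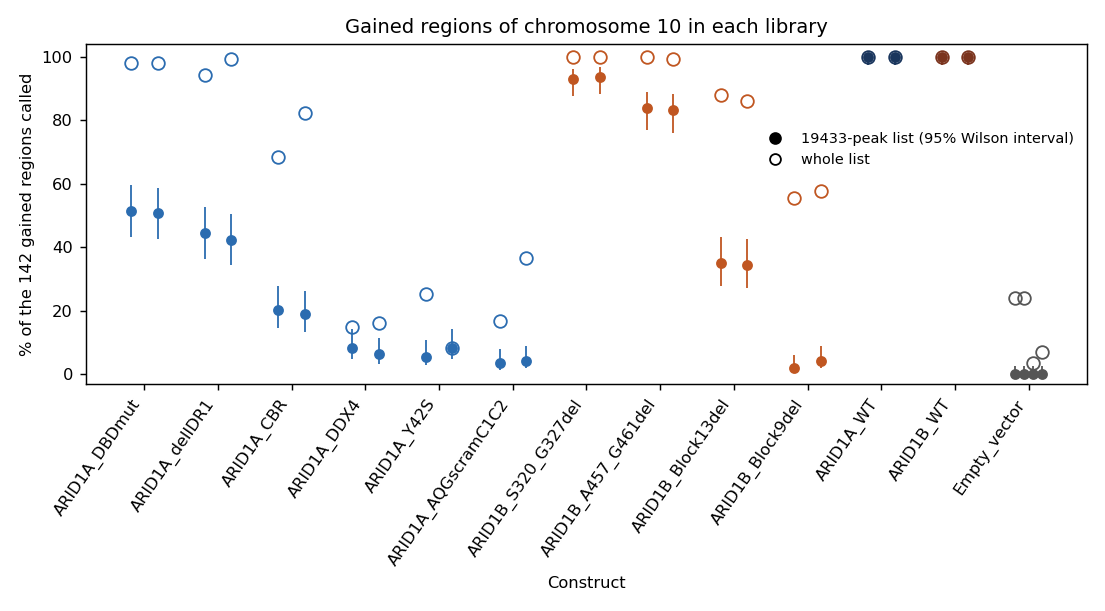
Percent of the 142 gained regions called by each library, in the shortened lists (filled, with Wilson 95% intervals, which cover counting error only) and in the whole lists (open). S320_G327del and A457_G461del lie above 80% in both, while DBDmut and delIDR1 lie near 50% when shortened and above 90% when whole, and the choice of the regions sets the filled points of the wild types at 100% and of Empty_vector at 0%.

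Counting a region as called only where both libraries of a construct held it, DBDmut and delIDR1 shared 38 of the 142, DBDmut without delIDR1 called 22, delIDR1 without DBDmut 14, and 68 were called by neither in both libraries. CBR called 26, of which 19 were among the 38 that DBDmut and delIDR1 shared. Block13del called 36, of which 27 were called by DBDmut or delIDR1. S320_G327del and A457_G461del shared 107, and 44 of these were called by no ARID1A form. By number of altered constructs, 6 gained regions were called by none, 41 by just 2, and 1 by all 10. The same counts over all chromosomes are not given here, so these describe chromosome 10 alone.

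Better-ranked gained regions were called more often. The 71 with the better mean rank in the wild types were called at 62.0% in DBDmut, against 40.1% for the other 71. The same pair of values was 55.6% and 31.0% in delIDR1, 26.1% and 13.4% in CBR, 47.9% and 21.8% in Block13del, 97.9% and 69.0% in A457_G461del, and 100% and 86.6% in S320_G327del. All 6 constructs called the better-ranked ones more often, and the order of the 6 was the same in both sets of 71.

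The 10 gained regions with the best mean rank were also followed peak by peak. They were chosen by their rank in the wild types, so their ranks in the altered constructs are a description. A rank counts from 1 at the highest −log10 p of a list, and fold enrichment is the authors' value for a peak over its background. The first was at chromosome 10, 69913219 to 69914142. It ranked 1840 and 848 in S320_G327del, 3956 and 4085 in A457_G461del, 3056 and 3988 in DBDmut, 4781 and 6384 in delIDR1, 9089 and 8933 in CBR, and 13910 and 16204 in Block13del. In the wild types it ranked 1165 and 2916 (ARID1A_WT) and 1436 and 2643 (ARID1B_WT), with fold enrichments of 6.47 to 8.23, and no Empty_vector library called it. S320_G327del thus lay within the range of its wild type or ahead of it, and A457_G461del, DBDmut, delIDR1, CBR and Block13del were behind theirs. DDX4 library 1 held it near the end of its list at rank 18236, and Y42S, AQGscramC1C2 and Block9del did not call it.

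The second, at 22909055 to 22909926, was the only one of the 10 on the short arm. DBDmut ranked it 4380 and 6598 and delIDR1 5535 and 8709, against 2740 and 3599 in ARID1A_WT, and CBR did not call it. The third, at 121040778 to 121041857, and the fourth, at 121427050 to 121428115, lay in a window with 9 gained regions. The third ranked 2041 and 481 in ARID1B_WT and 6232 and 2794 in ARID1A_WT, so its rank was better in ARID1B_WT. The fourth was called in 19 libraries, the most of the 10, among them 1 of DDX4 and both of Y42S, and it stood in 2 of the whole Empty_vector lists.

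The fifth, at 75666265 to 75667072, was called by the fewest altered constructs. Block13del and CBR did not call it, and delIDR1 ranked it 19336 and 16235, near the end of the list, against 8534 and 8858 in DBDmut and 4414 and 4020 in ARID1A_WT. The remaining 5 were at 94651856 to 94652871, 100028942 to 100029821, 89890982 to 89892223, 77042937 to 77044121 and 80076045 to 80077101. S320_G327del ranked each of these 5 between 697 and 2365, against 1400 to 4617 in ARID1B_WT. All 10 were called by both libraries of DBDmut, delIDR1, S320_G327del and A457_G461del, 9 by both of Block13del, 5 by both of CBR, and none by AQGscramC1C2 or Block9del. In the whole Empty_vector lists 8 of the 10 had no peak.

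**Figure D5:**
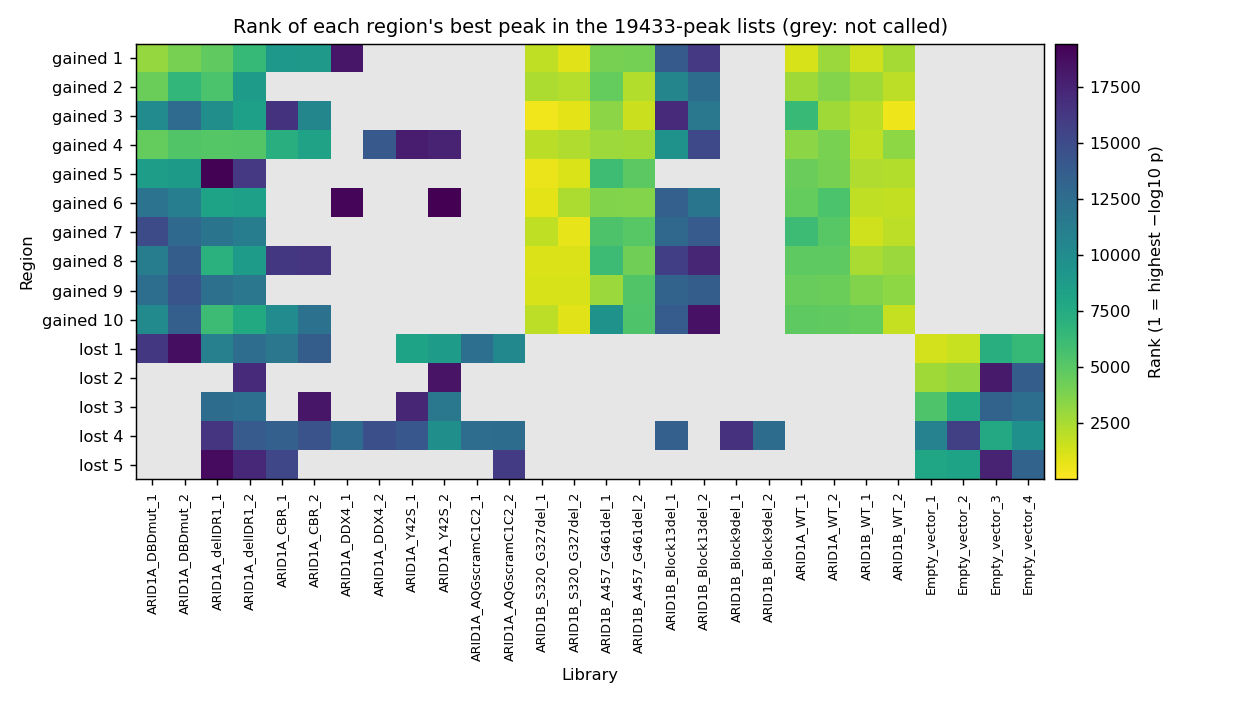
Rank by −log10 p in the shortened list (colour) of the 10 gained and 5 lost regions of chromosome 10 with the best mean rank, in all 28 libraries. Grey marks regions that a library did not call, which for the gained regions is every library of AQGscramC1C2, Block9del and Empty_vector.

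The lost regions ranked lower. Their median mean rank was 14845.8 in Empty_vector, and that of gained regions was 10459 in the wild types. The best was at 73025390 to 73026685. It was called by CBR (11698 and 13686), delIDR1 (10944 and 12487), DBDmut (16298 and 18678), Y42S (8124 and 8665) and AQGscramC1C2 (12306 and 10375), and by no ARID1B deletion or DDX4 library. Empty_vector libraries of runs A and B ranked it 1318 and 1622, and those of run C 7175 and 6414, ahead of every altered library that called it. The second, at 122656274 to 122657283, and the third, at 122650099 to 122651689, were 4.585 kb apart. Empty_vector ranked the second 2774 and 3132 in runs A and B but 18012 and 13729 in run C, so its place moved with the run as well.

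The fourth lost region, at 74060878 to 74061939, was called by most altered constructs. DDX4, Y42S, AQGscramC1C2, CBR, delIDR1 and Block9del called it in both libraries, Block13del in 1, and DBDmut, S320_G327del and A457_G461del in none. The fifth, at 12752658 to 12753578 on the short arm, was called by both delIDR1 libraries and 1 library each of CBR and AQGscramC1C2. Of all 35 lost regions, S320_G327del called 3 and 1 (8.57% and 2.86%, against 7.73% and 5.07% on all chromosomes). A457_G461del called 6 and 7 (17.1% and 20%, against 21.1% and 20.7%). DBDmut called 14 and 15 (40% and 42.9%, against 54.8% and 54.1%). For delIDR1 it was 16 and 24 (45.7% and 68.6%, against 51.9% and 53.1%). For Block13del it was 24 and 18 (68.6% and 51.4%, against 64.1% and 64.1%). CBR called 18 and 26 (51.4% and 74.3%, against 58.5% and 64.4%), and DDX4 21 and 20 (60% and 57.1%, against 64.5% and 66.9%). Y42S called 26 and 18 (74.3% and 51.4%, against 76.4% and 60.9%). AQGscramC1C2 called 27 and 27 (77.1% and 77.1%, against 80.4% and 82.5%). Block9del called 28 and 27 (80% and 77.1%, against 72% and 75.9%).

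Regions called in both libraries of an altered construct and in no Empty_vector library, whatever the wild types did, gave the same split. S320_G327del had 379 on chromosome 10 (21.8%, against 15.5% on all chromosomes), A457_G461del 221 (12.7%, against 9.58%) and Block13del 56 (3.23%, against 1.83%). DBDmut had 87 (5.01%, against 3.65%), delIDR1 86 (4.95%, against 3.83%) and CBR 67 (3.86%, against 2.74%). DDX4 had 29 (1.67%, against 1.29%), Y42S 21 (1.21%, against 0.634%), Block9del 15 (0.864%, against 0.682%) and AQGscramC1C2 14 (0.806%, against 0.522%). In DDX4 these made up 3.12% of short-arm regions (11) and 1.30% of long-arm regions (18), while in S320_G327del they made up 17.0% of the short arm (60) and 23.1% of the long arm (319).

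Regions lost in a construct, called in all 4 Empty_vector libraries and in neither of its own, were fewer. They numbered 113 for S320_G327del (6.51%, against 8.51% on all chromosomes), 51 for A457_G461del (2.94%, against 4.19%), 20 for Block13del (1.15%, against 1.06%) and 10 for Block9del (0.576%, against 0.701%). The ARID1A forms had 26 in DBDmut (1.498%, against 0.992%), 26 in delIDR1 (1.498%, against 1.52%), 16 in CBR (0.922%, against 1.24%) and 22 in DDX4 (1.27%, against 1.14%). Y42S had 11 (0.634%, against 0.767%) and AQGscramC1C2 10 (0.576%, against 0.315%). For the wild types the numbers were 48 in ARID1A_WT (2.76%, against 3.31%) and 72 in ARID1B_WT (4.15%, against 5.92%). Gains in a construct thus made up more of chromosome 10 than of all chromosomes in every construct, while losses lay on either side of the genome-wide share. These gains are absent from the shortened Empty_vector lists only. Without a peak in any whole Empty_vector list were 0 of 29 gains in DDX4 and 0 of 15 in Block9del. The same held for 1 of 21 in Y42S and 1 of 14 in AQGscramC1C2, against 22.4% to 79.9% in the other constructs.

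A few regions were called in both libraries of just 1 construct and in no other library. S320_G327del had 43 of these on chromosome 10 (2.48%, against 1.64% on all chromosomes) and ARID1B_WT 18 (1.04%, against 0.601%). CBR had 11, all on the long arm (0.634%, against 0.337%), and DDX4 had 3, all on the short arm (0.173%, against 0.149%). In the whole lists no such region was left on chromosome 10. Similarity to Empty_vector, as regions shared divided by regions in either list of a pair, averaged 0.460 for S320_G327del, 0.577 for A457_G461del, 0.744 for Block13del and 0.801 for Block9del among ARID1B deletions. It averaged 0.707 for delIDR1, 0.719 for DBDmut, 0.744 for CBR, 0.756 for DDX4, 0.766 for Y42S and 0.805 for AQGscramC1C2, with 0.521 for ARID1B_WT and 0.595 for ARID1A_WT. Pairs of Empty_vector libraries gave 0.769 to 0.876, a range that held AQGscramC1C2 and Block9del.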

How the data were processed

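ATAC-seq peak lists of 28 libraries in 13 groups were used. Per the submitters' processing notes, bcl2fastq, Bowtie2, Picard 2.8.0, SAMtools 0.1.19, MACS2 and hg19 were used. No source used here gives the caller's options, and peaks were listed per library. Columns of the deposited lists give fold enrichment (a ratio), −log10 p and −log10 q per peak, as the authors' caller made them. The lowest −log10 q of a list was 3.00 to 3.03.

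Lists were shortened to 19433 peaks, merged at 1 bp of overlap and counted in 1 Mb windows. Chromosome shares, arm shares and windows were fitted with limma 3.58.1 (trend, R 4.3.3) over all libraries on a log2 scale, with a pseudocount of 1 for windows and Benjamini-Hochberg adjustment over all chromosomes, arms or windows, separately for each contrast. The fits were tested on simulated data. Regions named are the 10 gained and 5 lost of best mean rank. Windows named are the 5 with most regions, the 5 with most gained regions and the 10 of smallest p. Members and lists were chosen with earlier results of these data known. No 2 replicate lists held identical peaks. Alternatives were other rankings, list lengths, overlaps and windows, whole lists, a replicate block, a run term and leaving out each library. Single-construct shares in other lists and Empty_vector of the same runs were added after the data were seen. Gene loci were not analysed here.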

Additional observations from a re-analysis of the deposited data

Results flagged for a closer look

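In 4 windows of chromosome 10 that the report names, 1 Empty_vector library stood apart from the other 3. Empty_vector library 4 had 13 regions from 121 to 122 Mb and library 3 had 9 from 45 to 46 Mb, against 12 and 10 in each of the others. Library 2 had 8 regions from 76 to 77 Mb, against 7 in the others, and library 1 had 8 from 80 to 81 Mb, against 6. Each differed by 1 or 2 regions, and all 4 stayed below every wild-type library. In all, 28 sets of Empty_vector values were tested this way. The rule always marks a set in which 3 counts are equal and 1 is not. All 4 marked sets are of this kind, so no chance rate can be set beside them.

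The effect of ARID1A_WT over Empty_vector in runs A and B differed from that of ARID1B_WT over Empty_vector in run C, by −0.148 on the log2 scale for the chromosome 10 share and by −0.219 for the long-arm share (limma, adjusted p 2.76e-06 and 1.02e-09). For the short arm the same difference was 0.13 (limma, adjusted p 0.104). Of 97 windows, 5 had such a difference (4.14% of all windows). Construct and run cannot be told apart here.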

How the results depend on the processing

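By fold enrichment the wild-type minus Empty_vector share was 0.0225, the long arm −0.00359, the short arm 0.107, and 20 windows passed. Gained regions numbered 142, and 966 in whole lists, 37 in lists of 9716 peaks, 215 in runs A and B, 300 in run C, and 142 to 168 when 1 library was left out. Lost regions numbered 35, and 6 in whole lists, 3 in lists of 9716 peaks, 22 at 50% overlap, 113 in runs A and B, 115 in run C, and 37 to 49 when 1 library was left out. Windows past the threshold numbered 43, and 96 in whole lists, 24 at 50% overlap, 27 of 2 Mb, and 34 to 44 when 1 library was left out. Over all constructs against Empty_vector they numbered 200 (437 in whole lists, 172 to 211 when 1 library was left out), and against wild type 210 (481 and 146 to 218).

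Shares of single constructs were recomputed after the data were seen. By fold enrichment the log2 difference from Empty_vector turned for the chromosome in CBR (−0.0543), DBDmut (−0.0500), delIDR1 (−0.0247) and ARID1A_WT (−0.0263), and for the long arm in CBR (−0.0518), DBDmut (−0.0494), delIDR1 (−0.0200), ARID1A_WT (−0.0758) and S320_G327del (−0.00742). In whole lists it turned for the short arm in DDX4 (−0.0336) and Y42S (−0.0173), and ARID1B_WT minus ARID1A_WT turned for the chromosome (−0.0218) and the long arm (−0.0229).

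Directions reversed at these named windows. By fold enrichment the log2 difference was −0.0658 at 72 to 73 Mb, −0.0344 at 45 to 46 Mb, −0.13 at 73 to 74 Mb, −0.46 at 105 to 106 Mb and −0.10 at 123 to 124 Mb. At 105 to 106 Mb the main difference was 0.39 (limma, adjusted p 8.80e-05), and the reversed one passed too (limma, adjusted p at most 0.0136). That window was thus called in opposite directions by the 2 rankings. In lists of 9716 peaks it was −0.0906 at 76 to 77 Mb, −0.0835 at 73 to 74 Mb and 0.18 at 99 to 100 Mb. At 50% overlap it was −0.0658 at 123 to 124 Mb and 0.0170 at 99 to 100 Mb. In whole lists it was 0.54 at 99 to 100 Mb, 0.37 at 102 to 103 Mb and 0.65 at 104 to 105 Mb. The window from 99 to 100 Mb also gave 0.000600 with regions in 4 or more lists, 0.0170 with the replicate block, and −0.0650 to 0.0264 when 1 library was left out. The cause was not tested.

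Replicates 1 and 2 came from runs A and B in ARID1A_WT, DBDmut, delIDR1, CBR and Empty_vector. Deviations of same-numbered libraries correlated at −0.194 to 0.114 over all 78 pairs of groups, and 1 pair was over 0.1. Over the 10 pairs with replicate 1 in run A and 2 in run B they correlated at −0.0637 to 0.0858. With the replicate block the wild-type minus Empty_vector share kept its call, the short arm gave 0.0364, and 34 windows passed for the wild types, 148 over constructs and 201 against wild type. Leaving out 1 library gave 0.161 to 0.181 for the share, 0.204 to 0.242 for the long arm and −0.0653 to −0.00577 for the short arm. Missing read counts limit depth to peak ranks.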
